A study of Mus musculus with 2 samples.

Results

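The RNA of developing T helper 17 (Th17) cells was assembled into transcripts, and 2968 of the assembled loci lay outside every annotated gene locus in the deposited table and reached at least 1 FPKM in at least 1 of the libraries. FPKM counts the fragments of a transcript relative to its length and to the number sequenced. Members were the rows with an XLOC identifier, the name that transcript assembly gives to a locus, whose coordinates overlapped no locus of a row with an Entrez gene identifier. Of 24440 features in all, 6666 carried XLOC identifiers, 5933 of these lay outside gene loci, and 2968 of the 5933 passed the FPKM threshold. The 2965 loci under the threshold are not described. The members were thus chosen by their FPKM values in both libraries, and levels and the larger of each pair of values are descriptions.

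The donors of the CD4+ T cells were C57BL/6 mice with the wild type genotype, at an age of 6 to 8 weeks, and the cells of both libraries were cultured for 48 h in Th17 medium. In the WT-APC library the cells had been grown with wild-type antigen-presenting cells (APCs). In the OX40L-TG-APC library the APCs carried an OX40L transgene, OX40L being the ligand of the costimulatory receptor OX40 on T cells. The promoter of the transgene, the type of APC and the number of mice are not given in the sources used here. Each library was made from 1 µg of total RNA of 5000000 cells, and each condition had 1 library. No difference below therefore has a replicate check, and no test was made: each value compares these 2 libraries.

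A mammalian genome is transcribed well beyond its protein-coding exons. Assembly of reads outside known exons recovers long noncoding RNAs, primary transcripts of microRNAs, transcripts from promoters and enhancers, extended ends of genes and processed pseudogenes. In lymphocytes it also recovers antigen receptor segments, among them variable (V) and joining (J) segments, which V(D)J recombination joins into a functional receptor gene. Th17 cells make the cytokines IL-17A, IL-17F and IL-21 with transcription factors such as RORα (Rora) and Maf.

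The absence of a gene held only for the gene rows of the deposited table. Set against the RefSeq genes of GRCm38, 1278 of the 2968 loci (43.1%) overlapped a gene, and 1314 (44.3%) overlapped neither a RefSeq nor a GENCODE M21 gene. The overlapped RefSeq genes were protein coding at 683 loci, long noncoding RNA at 552, pseudogenes at 94, microRNA genes at 25, V segments at 20 and transfer RNA (tRNA) genes at 19, with several types at some loci. By GENCODE, 356 loci touched an exon of a protein-coding gene, 414 an exon of another gene, 534 lay in introns and 1664 between genes. Identifiers held no gene for 2713 loci, an Entrez identifier for 116 and an unexplained identifier starting with n for 139. Some rows repeated coordinates: 128 rows shared a locus with another member, which left 2890 distinct loci.

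The sequences at 2 kinds of locus are known from references and are shown first. The T cell receptor segments are shown because some copies are nearly the same, and those printed lie wholly or nearly so inside the assembled locus whose values are given below. Each V segment line gives the last 60 bases in GENCODE M21 on the coding strand, and the capitals mark the last in-frame TGT, the codon of the conserved cysteine at which the antigen-contacting loop begins. Trbj1-7 is given whole, with no capitals.
Trbv31 (chr6:41557691-41557750, minus strand): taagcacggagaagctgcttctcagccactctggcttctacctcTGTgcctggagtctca
Trbj1-7 (chr6:41535642-41535687, plus strand): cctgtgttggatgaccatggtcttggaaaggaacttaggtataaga
Trbv20 (chr6:41188918-41188977, plus strand): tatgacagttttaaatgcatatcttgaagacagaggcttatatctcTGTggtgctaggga
Trav13-1 (chr14:53545466-53545525, plus strand): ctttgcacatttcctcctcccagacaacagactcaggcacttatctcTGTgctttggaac
Trav13-4-dv7 (chr14:53757862-53757921, plus strand): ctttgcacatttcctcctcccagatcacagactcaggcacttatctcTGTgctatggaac
Trav13d-1 (chr14:52851807-52851866, plus strand): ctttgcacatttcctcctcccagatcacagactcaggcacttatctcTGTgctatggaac

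All printed bases lay in the assembled loci for Trbv31, Trbj1-7, Trav13-4-dv7 and Trav13d-1, and 58 and 57 of the 60 for Trbv20 and Trav13-1. Over the 60 bases Trav13-4-dv7 and Trav13d-1 differed at 0 positions, and Trav13-1 differed from each of them at 3. Trav8-1 and Trav8d-1, not printed here, also differed at 0 of their last 60 bases, though 0 of these bases lay in the Trav8-1 locus. How reads that fit several copies were counted is not given in the sources used here. The values of the Trav13 loci, and of other loci at nearly identical copies, are therefore uncertain.

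The microRNAs are shown with the seed, bases 2 to 8, in capitals, since the seed is the part that pairs with target messages. The values below count fragments of the long locus around each microRNA gene, and the mature molecules were not measured separately. Of 21 microRNA genes at the loci, 16 had a mature sequence in the RefSeq table (GRCm38.p6), and those of 7 well-known ones follow.
miR-29a-3p (chr6:31062673-31062694, minus strand): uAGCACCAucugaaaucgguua
miR-29b-3p (chr6:31063025-31063047, minus strand): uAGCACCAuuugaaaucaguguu
miR-24-3p (chr13:63301251-63301272, plus strand): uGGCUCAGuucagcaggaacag
let-7i-5p (chr10:122985698-122985719, minus strand): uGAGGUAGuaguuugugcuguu
miR-146a-5p (chr11:43374435-43374456, minus strand): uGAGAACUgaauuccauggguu
miR-31-5p (chr4:88910614-88910635, minus strand): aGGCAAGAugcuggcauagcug
miR-34a-5p (chr4:150068473-150068494, plus strand): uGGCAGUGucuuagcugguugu

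miR-29a-3p and miR-29b-3p shared the seed AGCACCA, and the other 5 had a seed each. Both miR-29 genes lay in 1 locus.

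Most of the assembled loci were expressed at low levels, and most were lower in the OX40L-TG-APC library. The median locus had 1.37 FPKM in the WT-APC library and 0.933 in the OX40L-TG-APC library, 2018 loci (68.0%) stayed under 2 FPKM in both, and 36 reached 20 FPKM. After 1 was added to both FPKM values, the change was the log2 of the OX40L-TG-APC value over the WT-APC value, a scale that understates the change of low values, and a 2-fold change on it was called. Of the 2968 loci, 807 (27.2%) were lower by at least 2-fold with OX40L-TG APCs and 108 (3.64%) were higher by as much. Over all 15742 features that reached 1 FPKM, 6.68% were lower and 2.46% higher by this rule, and over the 10645 annotated genes 1.32% were lower and 2.26% higher. Because the rule used these values, nothing is read from the difference between these shares. The median change of the loci was -0.42, that of the annotated genes 0.11.

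The direction depended on the level. The 2018 loci whose larger value was 1 to 2 FPKM had a median change of -0.46, and the 717 of 2 to 5 FPKM had -0.41. The 157 loci of 5 to 10 FPKM had -0.19, the 40 of 10 to 20 FPKM 0.00 and the 36 of 20 FPKM or more -0.04. Annotated genes of 1 to 2 FPKM had a median of 0.07, with 1.16% at least 2-fold lower. The lower direction was not particular to the members. Features with n identifiers of 1 to 2 FPKM had a median of -0.15, with 71.8% lower and 0.92% at least 2-fold lower. The 420 assembled loci that overlapped gene loci and reached 1 FPKM had -0.32, with 71.0% lower and 19.5% at least 2-fold lower. Of the members, 955 had at least 1 FPKM in both libraries, 1539 in the WT-APC library only and 474 in the OX40L-TG-APC library only. The number listed at 0 was 487 in the OX40L-TG-APC library and 32 in the WT-APC library. At the threshold the nearest loci inside were XLOC_033112 (1.00 and 0.894 FPKM in the WT-APC and OX40L-TG-APC library) and XLOC_050509 (0.890 and 1.00), and the nearest outside was XLOC_029125 (1.00 and 0.993, a larger value just under 1).

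**Figure D1:**
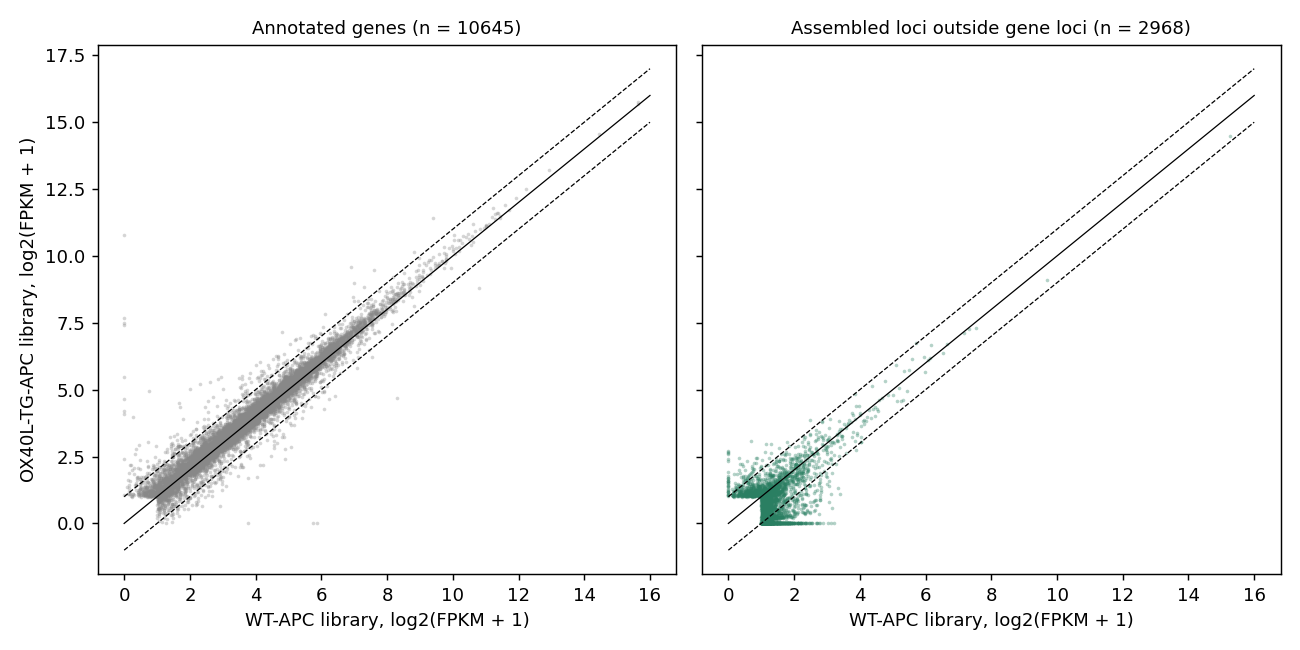
Expression in the OX40L-TG-APC library (vertical axis) against the WT-APC library (horizontal axis), both as log2(FPKM + 1), for 10645 annotated genes (left) and 2968 assembled loci outside gene loci (right). Each point is 1 feature, the solid line marks equal values and the dashed lines a 2-fold difference; the 487 loci listed at 0 in the OX40L-TG-APC library form the row along the bottom of the right panel.

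The low values rested on few fragments. At loci of 250 to 900 bases with no gene in the identifier the FPKM values stepped in units of 1 fragment. These steps put the depth at 26600000 fragments (WT-APC) and 30100000 fragments (OX40L-TG-APC). Fragment numbers were then estimated for all 1943 members of 250 to 1000 bases, with the printed span taken as the transcript length. The median of the larger fragment number was 13, and the 5th and 95th percentiles were 8 and 56. The 650 of them that were at least 2-fold lower had a median of 10 fragments in the WT-APC library and 0 in the OX40L-TG-APC library. The 76 that were at least 2-fold higher had medians of 1 and 12.

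The fragment numbers of the libraries were distributed differently. Among 3332 assembled loci of 250 to 900 bases with no gene in the identifier, taken without an FPKM threshold, 1456 had 10 or more fragments in the WT-APC library and 901 in the OX40L-TG-APC library. Of these, 550 reached 10 in both, 906 in the WT-APC library only and 351 in the OX40L-TG-APC library only. Between 8 and 13 fragments lay 1190 loci in the WT-APC library and 479 in the OX40L-TG-APC library, although the latter was 1.13 times deeper. Which libraries entered the assembly is not given in the sources used here, and the part of this choice in the lower values was not tested.

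**Figure D2:**
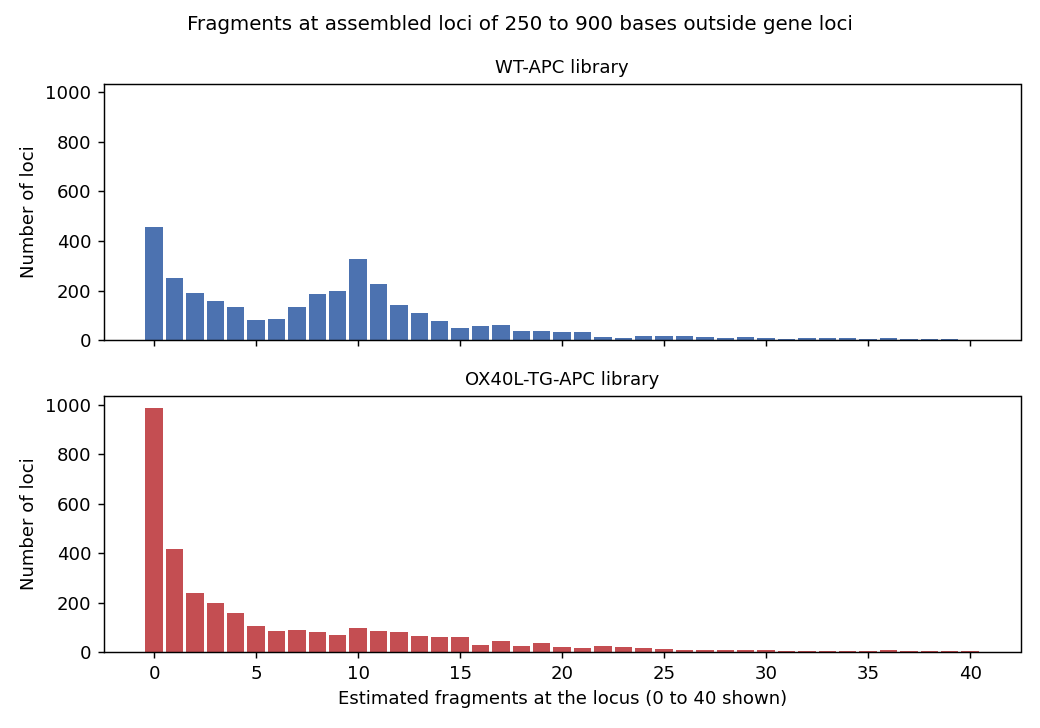
Number of assembled loci (vertical axis) with each estimated number of fragments from 0 to 40 (horizontal axis) in the WT-APC library (top) and the OX40L-TG-APC library (bottom), for 3332 loci of 250 to 900 bases. Both libraries have their highest bar at 0 (458 loci in the WT-APC library), and the WT-APC library has a second peak at 10 fragments (328 loci).

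The lower values were concentrated in short loci. The span, from the first to the last printed base, had a median of 594 bases over the members. Of the 942 loci of 301 to 500 bases, 454 were at least 2-fold lower and the median change was -0.96. The 213 loci of up to 300 bases had a median of -0.84, and the 619 of 501 to 750 bases -0.44. For the 251 loci of 751 to 1000 bases the median was -0.17, for the 361 of 1001 to 2000 bases -0.15 and for the 262 of 2001 to 5000 bases -0.15. The 320 loci over 5000 bases, among them merged and spliced ones, had -0.38.

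Median changes were also ordered by the distance to the nearest annotated gene locus, measured between nearest ends. The median distance was 6927 bases, and 43.9% of the loci lay within 5 kb of a gene. The 489 loci under 1 kb had a median change of -0.11, with 45 at least 2-fold lower and 22 higher. At 1 to 5 kb (813 loci) the median was -0.25, at 5 to 50 kb (995 loci) -0.56, and over 50 kb (671 loci) -1.02, with 348 at least 2-fold lower and 15 higher. Span and distance went together: of the 288 loci of 301 to 500 bases that lay over 50 kb from a gene, 212 were at least 2-fold lower and 147 were listed at 0 in the OX40L-TG-APC library. Within the span of 301 to 500 bases the median was -0.32 under 1 kb (110 loci), -0.54 at 1 to 5 kb, -0.95 at 5 to 50 kb and -1.21 over 50 kb. Within spans over 750 bases the same classes had -0.12 (255 loci), -0.17, -0.28 and -0.43 (194 loci).

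**Figure D3:**
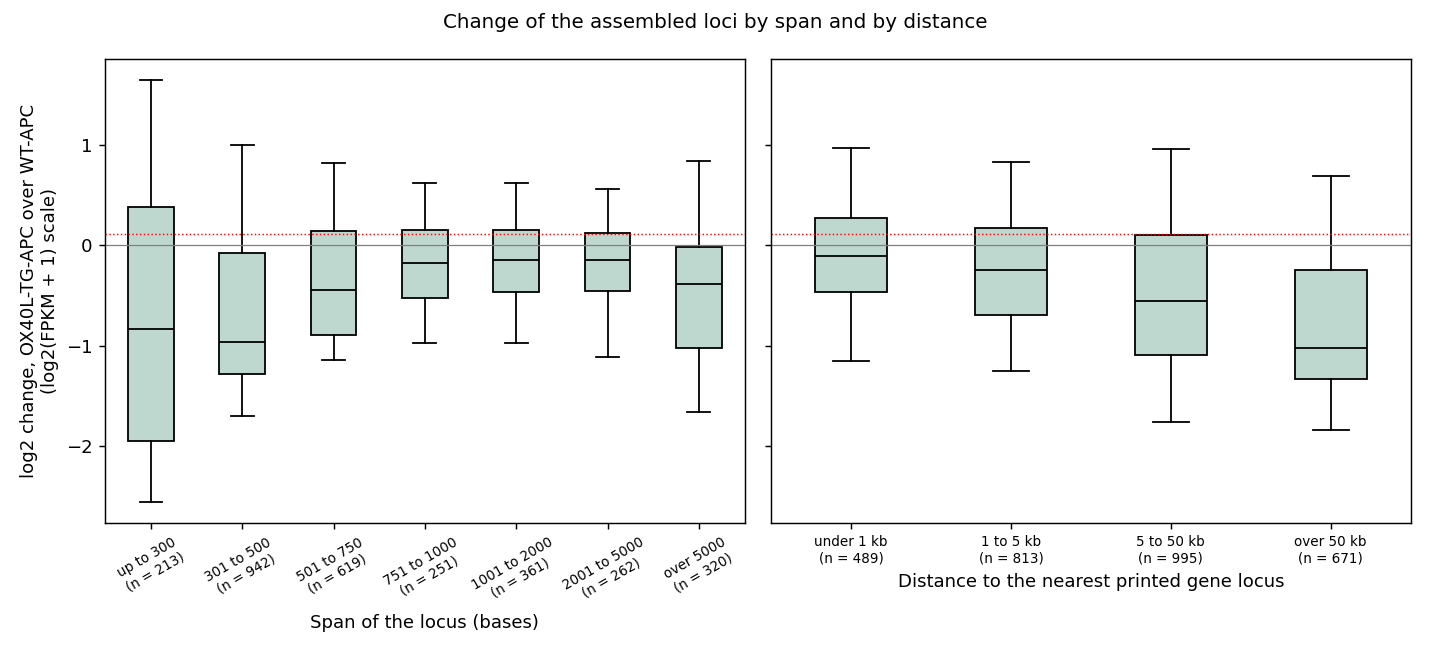
Change between the libraries (vertical axis, log2 of OX40L-TG-APC over WT-APC on the FPKM + 1 scale) for the 2968 assembled loci by span (left) and by distance to the nearest gene locus (right). Boxes show the quartiles and the median, whiskers the 5th and 95th percentiles of the loci, and the dotted line the median of the annotated genes (0.11); medians are lowest for loci of 301 to 500 bases (-0.96) and over 50 kb (-1.02).

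The side of the gene also differed with distance. Under 1 kb, 384 loci lay upstream of the gene's start and 58 downstream of its end. At 1 to 5 kb, 506 lay downstream and 220 upstream. For 47 and 87 loci in these classes the side could not be assigned, because GENCODE gave no single strand for the nearest gene or genes. The median change of the 384 near upstream loci was -0.06 and that of the 58 near downstream loci -0.28.

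By chromosome, the number of members ran from 3 on Y and 39 on X to 230 on chromosome 11. Set against the annotated genes of the same chromosome that reached 1 FPKM, members were most frequent on chromosome 15 (40.7 per 100 genes) and least frequent on X (12.4 per 100 genes), leaving out Y, which had 4 such genes. Median changes of the autosomes ran from -0.65 on chromosome 16 (63 loci) to -0.17 on chromosome 6 (136 loci). On X, 0 of the 39 loci (0%) were 2-fold lower and 6 (15.4%) 2-fold higher. Over all members these shares were 27.2% and 3.64%, and over all features 6.68% and 2.46%. The median on X was 0.06 as deposited. That direction flipped when the OX40L-TG-APC values were scaled to the annotated genes, to -0.02 by the median ratio (1.09) and to -0.04 by equal totals (ratio 1.13), with 1 locus lower and 3 higher under both.

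Near genes that themselves changed, the assembled loci leaned the same way. Of the 48 loci within 50 kb of a gene at least 2-fold lower in the OX40L-TG-APC library, 45 were lower too. At least 2-fold lower were 18 (37.5%), and the median was -0.84. Of the 44 loci near a gene at least 2-fold higher, 16 were lower, and the median was 0.54. At least 2-fold higher were 13 (29.5%) and at least 2-fold lower 7 (15.9%). The 1841 loci near genes that did neither had a median of -0.28, and 66.4% of them were lower. Of these 1841, 17.4% were at least 2-fold lower and 3.64% at least 2-fold higher. Over all members the shares were 27.2% and 3.64%. Over all loci the relation was weak. Pearson's r between the changes of locus and gene was 0.21 under 1 kb (422 loci), 0.23 at 1 to 5 kb (702 loci), 0.24 at 5 to 50 kb (809 loci) and 0.09 beyond (479 loci). These points share both libraries and often a gene.

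Around the signature cytokine genes of Th17 cells, the loci were lower with OX40L-TG APCs. Il17a, which encodes the defining Th17 cytokine, had 315 FPKM in the WT-APC library and 24.7 in the OX40L-TG-APC library, and its neighbour Il17f had 1764 and 450. The locus XLOC_001802 (chr1:20739249-20740482), 4752 bases downstream of Il17a, had 3.10 and 0.932 FPKM, a change of -1.08. XLOC_000098 (chr1:20754751-20755314), 20254 bases downstream, had 1.31 FPKM (14 fragments) and 0.167 (2 fragments). XLOC_001801 (chr1:20725180-20725617), 5287 bases upstream of Il17a, had 10 fragments in the WT-APC library and was listed at 0 in the OX40L-TG-APC library, at least 3.77-fold lower when 0 is set to 3 fragments. The fourth, XLOC_001803 (chr1:20759015-20759845), 17300 bases downstream of Il17f, had 1.12 FPKM (20 fragments) and 0.200 (4 fragments). Of these 4 loci, 2 were at least 2-fold lower, and all 4 lay between GENCODE genes. Over all members 70.3% were lower and 27.2% at least 2-fold lower, and over all features 6.68% were at least 2-fold lower.

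At Il23r, which encodes the receptor subunit for the Th17-maintaining cytokine IL-23, the 2 loci differed in direction. XLOC_043011 (chr6:67416233-67416643), 6288 bases downstream, had 5.34 FPKM (35 fragments) in the WT-APC library and 0.819 (6 fragments) in the OX40L-TG-APC library, as against 31.4 and 14.9 FPKM for Il23r. XLOC_043010 (chr6:67399913-67400269), farther downstream, had 0.574 FPKM (3 fragments) and 1.75 (10 fragments). The 95% exact counting interval of its ratio, 0.758 to 16.7, held 1.

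The loci at transcription factor genes differed in direction. Maf had 184 and 74.3 FPKM, and its 3 upstream loci, which overlap the RefSeq gene model Gm51552, were lower as well. XLOC_049053 (chr8:115714255-115714830) had 1.82 FPKM (20 fragments) and 0.324 (4 fragments), XLOC_049052 had 1.22 and 0.381 FPKM, and XLOC_049054 had 10 and 3 fragments. The counting interval of XLOC_049054, 0.0469 to 1.03, held 1. The locus of the highest level near Th17 genes was XLOC_051493 (chr9:69387082-69388044), with 37.3 FPKM (791 fragments) and 23.1 (554 fragments), a ratio interval of 0.554 to 0.691. It overlaps an exon of Rora in GENCODE, and Rora itself had 66.3 and 40.7 FPKM. Irf4, needed for T helper cell differentiation, had 401 and 418 FPKM, and its loci XLOC_013797 and XLOC_013800 had 1.02 and 1.48 FPKM and 1.37 and 0.678. The loci at Hif1a, a hypoxia factor gene, had changes of 0.12 and -0.05. Ahr, the aryl hydrocarbon receptor gene, shared its printed locus with Snx13, so the distance to Ahr itself is not known. The 3 loci nearest this shared locus had changes of 0.26, -0.56 and -1.45, and the first overlaps Snx13 in RefSeq.

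Il21, the gene of a cytokine that acts on Th17 and follicular helper cells, had 135 and 191 FPKM and 9 loci within 50 kb, of which 2 were at least 2-fold lower and 0 higher. XLOC_031374 (chr3:37250580-37250992) had 5.91 FPKM (39 fragments) in the WT-APC library and 0.948 (7 fragments) in the OX40L-TG-APC library. XLOC_031376 (chr3:37257506-37257744), a locus of 239 bases, had 4.89 FPKM and was listed at 0. The other 7 had changes from -0.47 to 0.39, and 4 of them are 2 pairs of rows with the same coordinates. The locus at Il22 behaved like these short loci: XLOC_004724, of 233 bases, had 4.21 FPKM and 0, while Il22 had 2.46 and 6.16.

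Il10, an anti-inflammatory cytokine gene with 36.7 and 16.3 FPKM, had 2 lower loci upstream. XLOC_002729 had 24 and 7 fragments and XLOC_002730 29 and 22. The counting interval of XLOC_002730, 0.367 to 1.21, held 1. Slamf6, a receptor of the SLAM family on T cells, had 28 and 8.45 FPKM. Of its 3 downstream loci, XLOC_001384 (chr1:171949350-171951036) had 4.10 and 1.18 FPKM, XLOC_001385 had 42 and 25 fragments, and XLOC_003207 had 9 and 0. The first 2 overlap exons of Slamf6 in GENCODE.

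The genes of the checkpoint receptor CTLA-4 and of the costimulatory receptor CD28 lie next to each other on chromosome 1, and both had several loci. Ctla4 had 504 and 597 FPKM and 11 loci upstream, 5 of which had more than 10 FPKM in both libraries and lay in introns of a GENCODE model of Ctla4. XLOC_000419 (chr1:60895110-60896070) had 38.7 FPKM (817 fragments) and 23.6 (564 fragments), while the gene was higher in the OX40L-TG-APC library. XLOC_000423 (chr1:60907249-60907856) had 22.3 and 17.4 FPKM. XLOC_000424 (chr1:60908715-60909007), 17 bases from the printed gene locus, had 12.9 and 15.8 FPKM with a counting interval of 0.820 to 1.87. Among the 11, 1 was at least 2-fold lower, 0 were higher and the median was -0.39. Cd28 had 217 and 142 FPKM, and the downstream locus XLOC_000408 (chr1:60774009-60781818, over the noncoding gene 2310016D23Rik) had 15.4 and 8.41.

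Il7r, which encodes the IL-7 receptor chain needed for survival of T cells, had 13.3 and 47.8 FPKM and 5 loci 32982 to 49847 bases upstream. XLOC_017091 (chr15:9575009-9575375) had 0.364 FPKM (2 fragments) and 2.33 (14 fragments). XLOC_017089 (chr15:9570031-9570362) had 0 and 10 fragments, 2.95-fold higher when 0 is set to 3, with a counting interval from 1.98 upward. The other 3 had changes of -0.29, -0.05 and 0.54. At Cish, a feedback inhibitor gene of cytokine signalling with 24.9 and 60.7 FPKM, both loci were higher in the OX40L-TG-APC library, XLOC_053477 with 0.880 and 1.67 FPKM and XLOC_053478 with 0.359 and 1.47.

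Some loci ran against their gene. Id3, a transcriptional inhibitor gene, had 17.7 and 50.4 FPKM, and its locus XLOC_037104 had 7 and 0 fragments. Tnfsf14, the gene of a TNF family ligand, had 4.37 and 11.6 FPKM, and XLOC_021847, 25438 bases downstream, had 14 and 0 fragments. These loci, like most of the lower ones, had 14 or fewer fragments in the WT-APC library.

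In all, 66 loci lay within 50 kb of the printed loci of 25 of 69 genes in 8 T helper lists. Ahr with Snx13, and Myc with Pvt1, were nearest at equal distance, so some of these loci can lie farther from the listed gene itself. Of the 66 loci, 49 (74.2%) were lower in the OX40L-TG-APC library, close to the 70.3% over all members. At least 2-fold lower were 15 (22.7%), against 27.2% of all members, and higher 2, with a median of -0.52. By list, 30 loci lay near Th17 genes (8, or 26.7%, at least 2-fold lower and 0 higher), 14 near cytokine and survival genes (2 and 2), 11 near a regulatory T cell gene (1 and 0), 6 near costimulation genes (1 and 0), 4 near follicular helper genes (2 and 0) and 1 near a Th9 gene (1 and 0). The Th1 and Th2 lists had 0 loci.

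**Figure D4:**
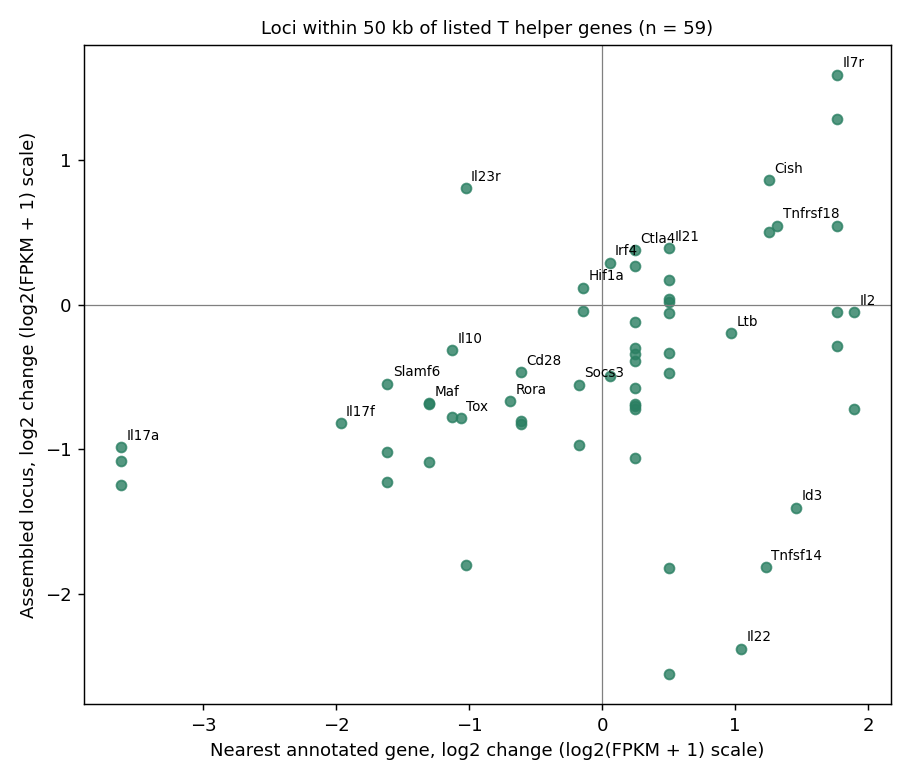
Change of each assembled locus (vertical axis) against the change of its nearest annotated gene (horizontal axis), both log2 of OX40L-TG-APC over WT-APC on the FPKM + 1 scale, for 59 loci near listed genes that have 1 nearest gene. Points in a column belong to 1 gene, named at its highest point; loci near Il17a, Maf, Il10 and Slamf6 lie in the lower left, and loci near Il7r spread from -0.29 to 1.59.

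T cell receptor loci changed by less than 2-fold between the libraries. The 23 loci in the receptor regions, 7 in the beta-chain region on chromosome 6 and 16 in the alpha- and delta-chain region on chromosome 14, summed to 350 FPKM in the WT-APC library and 312 in the OX40L-TG-APC library. Of these, 0 changed 2-fold, the median change was -0.07 and 15 were lower. Scaled to the annotated genes, 18 were lower, and the median was -0.18 by the median ratio and -0.22 by equal totals. Of the 18 with fragment numbers, 14 had a counting interval that held 1 and 4 one under 1. The highest was Trbv31. Its locus (chr6:41557662-41558453) had 92.4 FPKM (1536 fragments) and 81.7 (1538 fragments), an interval of 0.824 to 0.950. The Trbj1-7 locus (chr6:41535611-41536072) had 62.4 and 49.4 FPKM, and its counting interval, 0.696 to 0.904, lay under 1. Trbv4 had 27.9 and 26.8 FPKM and Trbv20 24.4 and 25, and both intervals held 1. On chromosome 14 the Trav13-1 locus had 31.4 and 26.8 FPKM. The locus of its near copy Trav13-4-dv7 had 10.4 and 6.88 FPKM and that of Trav13d-1 2.71 and 3.24, and both intervals held 1. Trav8-1 had 17.5 and 14.9 FPKM, and Trav10 13.4 and 13.9. Lower down, Trav8n-2 had 5.14 FPKM (36 fragments) and 2.67 (21 fragments), the largest change of the group (-0.74).

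The T cell identity of the samples was checked on annotated genes. The 9 T cell markers found of 10 listed summed to 1910 FPKM in the WT-APC library and 2021 in the OX40L-TG-APC library, and the 6 Th17 markers to 2349 and 652. B cell markers summed to 51.8 and 22.8 (10 of 10 lower in the OX40L-TG-APC library), monocyte and macrophage markers to 11.4 and 5.07 (7 of 8 lower), and dendritic cell markers to 6.94 and 23.7 (4 of 6 lower, 1 listed at 0). Batf3, a transcription factor gene of dendritic cells that T cells can also express, made up most of the last sum, with 2.18 and 21.5 FPKM, and the other 5 dendritic cell markers summed to 4.76 and 2.15. The single immunoglobulin locus moved with the B cell markers. XLOC_012262 (chr12:113325632-113326044), which overlaps the constant region gene Ighg1, had 2.57 FPKM (17 fragments) and 0.542 (4 fragments). The part of other cell types in the locus values was not tested. In bulk RNA, fewer cells of a type and less RNA per cell cannot be told apart.

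The tRNA loci went the other way from most members. tRNA genes are transcribed by RNA polymerase III, and the fragments counted here come from loci of 206 to 3340 bases around the short genes. Of 19 tRNA loci (18 distinct), 18 had the larger value in the OX40L-TG-APC library as deposited and 16 under each scaling to the annotated genes. At least 2-fold higher were 5 (26.3%) as deposited and 3 under each scaling. The shares as deposited were 3.64% over all members and 2.46% over all features. None of the tRNA loci was 2-fold lower, and the median change as deposited was 0.60. Of the 14 with fragment numbers, 9 had a counting interval over 1 and 5 one that held 1. The sum was 60.8 FPKM in the WT-APC library and 93.0 in the OX40L-TG-APC library. The group was taken up after these values were seen.

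The highest tRNA locus was that of n-TSaga5, a serine tRNA gene (chr13:21919224-21919508), with 13.7 FPKM (43 fragments) and 20.2 (72 fragments). The locus of n-TIaat17, an isoleucine tRNA gene (chr17:83861640-83862469), had 0 and 55 fragments, 16.2-fold higher when 0 is set to 3. Its counting interval ran from 12.7 upward, and its nearest gene Haao had 4.85 and 14 FPKM. The n-TGgcc13 locus had 0.483 and 4.00 FPKM, and the n-TAagc17 locus 10 and 28 fragments. The one with the larger value in the WT-APC library was n-TLaag6, a leucine tRNA gene (chr11:48856816-48857052), with 16.5 and 12.1 FPKM. Of the 14 tRNA loci with fragment numbers, 11 had under 50 in both libraries.

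**Figure D5:**
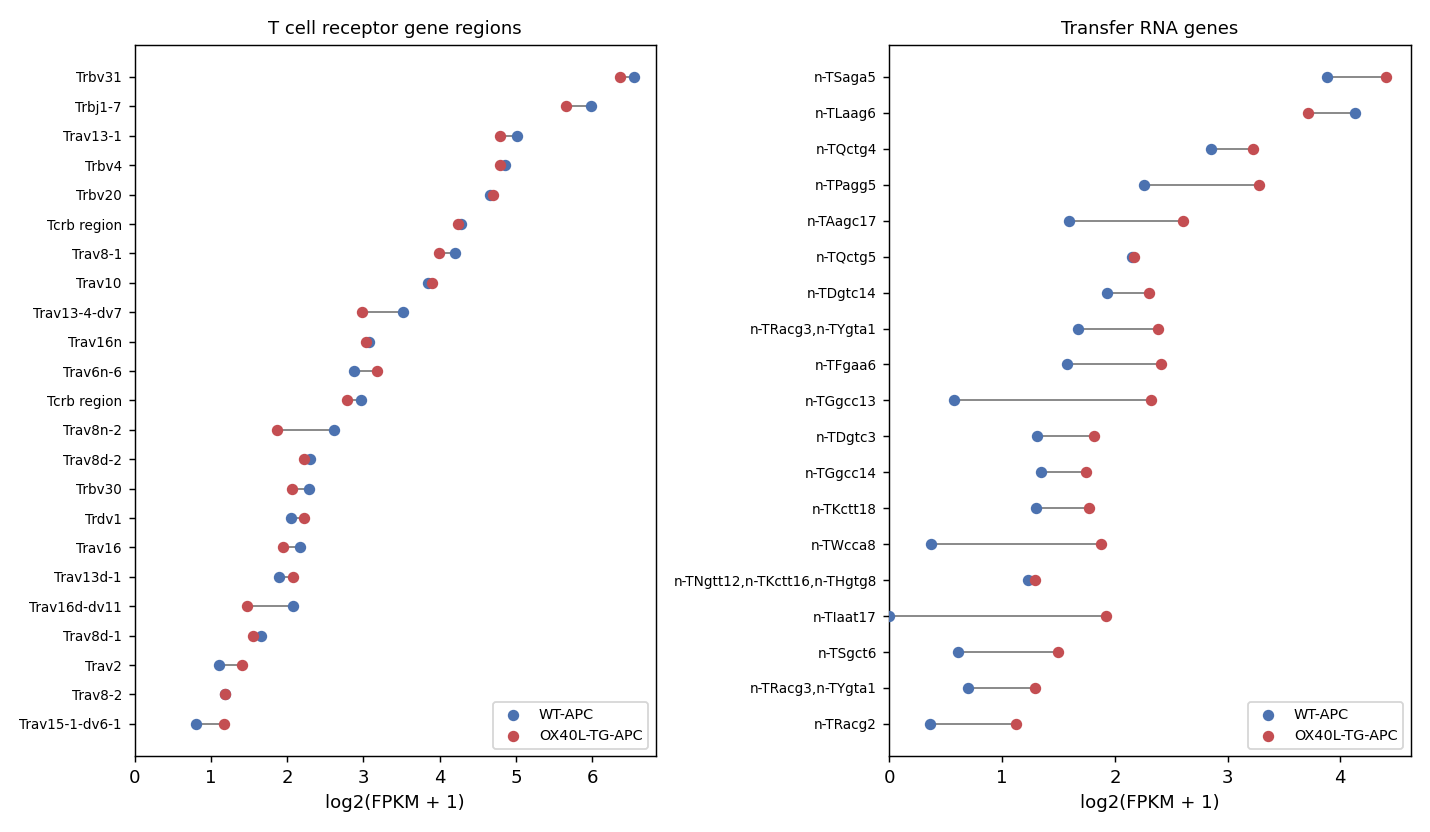
Expression, log2(FPKM + 1) on the horizontal axis, of the 23 loci in T cell receptor regions (left) and the 19 tRNA loci (right) in the WT-APC library (blue) and the OX40L-TG-APC library (red), 1 row per locus, named by the RefSeq genes it overlaps and ordered by mean level. The receptor loci all differ by less than 2-fold on this scale, with the widest gap at Trav8n-2 (-0.74), and 18 of the 19 tRNA loci have the larger value in the OX40L-TG-APC library.

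Values at microRNA loci were described by row. Of 25 rows, 10 share the coordinates of 1 locus over Mir30b and Mir30d (chr15:68337415-68362885), and their values ran from 3.26 to 4.78 FPKM in the WT-APC library and from 2.58 to 5.01 in the OX40L-TG-APC library. Over the 25 rows the median change was -0.27, 19 (76%) were lower, against 70.3% of all members, and 4 (16%) were at least 2-fold lower, against 27.2%. At least 2-fold higher were 0. The highest was the Mir24-1 locus (chr13:63300802-63301283), with 33.8 FPKM (283 fragments) and 22.8 (216 fragments) and a counting interval of 0.562 to 0.808. The host locus of Mir146, which encodes miR-146a, a brake on NF-κB signalling, had 1.36 and 0.367 FPKM. The locus over Mir31 had 1.32 and 0.118 FPKM and that over Mirlet7i 2.53 and 1.78. The Mir29a and Mir29b-1 locus had 3.47 and 4.65 FPKM and the Mir34a locus 0.907 and 1.54. These 5 loci span over 1000 bases and have no fragment estimate, so their counting error is unknown. Of the 6 rows with the larger value in the OX40L-TG-APC library, the largest change was at the Mir8105 locus XLOC_004869, with 0.676 FPKM (8 fragments) and 1.74 (23 fragments) and an interval of 1.10 to 6.57. The other 3 were the Mir7666 locus (1.06 and 1.19 FPKM) and 2 of the Mir30 rows.

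Among the 12 loci of the highest level were several pseudogenes, and the highest of all lay in no RefSeq or GENCODE gene. Its identifier holds the unexplained n identifier n265835. This locus, XLOC_032612 (chr3:5860339-5860826, 488 bases), had 39290 FPKM in the WT-APC library and 22853 in the OX40L-TG-APC library, which is 1.26% and 0.734% of the fragments. XLOC_000897 (chr1:122357006-122357243), also without a gene, had 833 and 543 FPKM. The other 10 of the 12 highest ran from 50.8 to 185 FPKM in the WT-APC library.

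Among those 10, 5 overlap RefSeq pseudogenes and 1 more the GENCODE gene Gm44521. Gm7962 had 185 and 158 FPKM, Gm6485 158 and 153, Ybx1-ps2, a copy of the RNA-binding protein gene Ybx1, 70.3 and 100, and Gm19503 60.7 and 74.5. Gm15432 on X had 50.8 FPKM (122 fragments) and 106 (287 fragments), an interval of 1.68 to 2.59, and was the single locus of 20 FPKM or more that was at least 2-fold higher. Reads of a processed pseudogene can come from its parent gene, so these values are uncertain. Over 99 pseudogene loci the median change was -0.14, with 19 (19.2%) at least 2-fold lower, against 27.2% of all members, and 3 higher.

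Small nucleolar and Cajal body RNA hosts were level between the libraries. The locus over Scarna2 (chr3:108552721-108554846), a guide RNA of the Cajal body, had 142 and 138 FPKM. The locus at Snhg1, a host gene of small nucleolar RNAs (chr19:8723650-8724007), had 66.7 FPKM (339 fragments) and 68.2 (392 fragments), and that over Scarna17 had 11.5 and 12.3 FPKM. All 4 such loci changed by less than 2-fold, and their median was 0.06.

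The 10 largest increases were in loci of 205 to 830 bases, 7 of them listed at 0 in the WT-APC library. XLOC_024919 (chr18:84086764-84087426), in an intron of Tshz1 and 201 bases from its printed locus, had 0 and 78 fragments. It was 23.0-fold higher when 0 is set to 3, with a counting interval from 18.2 upward, while Tshz1 had 23.7 and 24.9 FPKM. XLOC_041549 (chr6:65642650-65642868) had 0.620 and 7.41 FPKM and lay 8609 bases downstream of Tnip3, a gene of NF-κB inhibition, which had 2.25 and 19.2. XLOC_042229 (chr6:134363772-134364006), 10338 bases downstream of Etv6, was listed at 0 and at 5.53 FPKM. XLOC_031954, near Ensa, had 1 and 20 fragments.

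The 10 largest decreases were in loci of 203 to 237 bases, and 9 of them were listed at 0 in the OX40L-TG-APC library. The largest was XLOC_005171 (chr10:26922412-26922614), with 8.19 FPKM and 0, 3763 bases downstream of Arhgap18, which had 12.4 and 11.6 FPKM. XLOC_033638, upstream of Gstm5, had 7.96 and 0.509 FPKM, and XLOC_030082, upstream of Cd44, the gene of an adhesion receptor of activated T cells, had 5.51 and 0 while Cd44 had 14.5 and 24.4. At spans under 250 bases FPKM rises steeply per fragment, and no fragment numbers are given for these loci.

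Clusters of loci around 1 gene were also seen, and the genes named here were chosen after their values were seen. Within 50 kb the members fell to 1558 nearest genes or gene groups, of which 1146 had 1 locus and 41 had 5 or more. Ccr7, the lymph node homing receptor gene, had the most, with 14 loci of 1.04 to 7.71 FPKM in the WT-APC library and 0.161 to 4.45 in the OX40L-TG-APC library. Their median change was -0.49 and 0 reached 2-fold, while Ccr7 had 147 and 188 FPKM. S1pr1, the gene of the receptor that guides T cells out of lymph nodes, had 55.6 and 26.1 FPKM and 6 loci, 3 of them at least 2-fold lower. Those loci had 1.07 to 5.20 FPKM in the WT-APC library and 0 to 0.431 in the OX40L-TG-APC library. Cd2, an adhesion receptor gene with 248 and 407 FPKM, had 7 loci with a median of 0.33.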

How the data were processed

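The authors deposited FPKM per feature for both libraries. They were made with TopHat2 and Cuffdiff, and the build is mm9, per the submitters' processing notes; versions, assembly settings and strand handling are not given in the sources used here. Besides these values, a deposited comparison table holds the authors' FPKM ratios as log2 and p-values for 398 features, of which 0 were XLOC loci, so it was not used. Printed loci followed GRCm38: 99.7% of 13030 matched genes overlapped their GRCm38 locus. Printed starts count from 0, and 1 was added. Gene names came from RefSeq (GRCm38.p6) and GENCODE M21, and distances from the printed loci. The FPKM step of 1 fragment was fitted at loci of 250 to 900 bases with no gene in the identifier, and applied to members of 250 to 1000 bases. In the fit, 99.1% of 1014 low OX40L-TG-APC values lay within 0.03 and 89.0% of 736 low WT-APC values within 0.06 of a whole fragment. Intervals are 95% exact Clopper-Pearson intervals and cover counting error only. Where 0 was set to a floor of 3 fragments, the fold leaves out the counting error of the other library and is not a bound. Named were the 12 highest loci, the 10 largest changes each way, loci near the threshold, and loci at receptor, microRNA and small nucleolar RNA genes. Loci within 50 kb of the printed loci of 69 listed genes were named too. The members and lists were chosen with earlier results of these data known. The scripts were tested on simulated data. 1 locus near a listed gene is not reported here.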

Additional observations from a re-analysis of the deposited data

How the results depend on the processing

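No paired analysis was possible because each group has 1 library, and for the same reason no library could be left out. The lower direction of the median held under every alternative run, but the counts of 807 lower and 108 higher loci depended on the settings. With a pseudocount of 0.1, 1298 loci were lower and 307 higher (median -0.69); with 5, 15 and 5 (median -0.15). With a threshold of 2 FPKM there were 950 loci, 306 lower and 67 higher (median -0.34, 40% within 5 kb of a gene); with none, 5933 loci (median -0.13). Leaving out loci over RefSeq genes gave 1690 loci, 544 lower and 53 higher (median -0.56). Scaling to annotated genes moved the median to -0.48 by the median ratio and to -0.51 by equal totals. Chosen after seeing the data, spans over 750 bases gave 1194 loci, 135 lower and 21 higher (median -0.20, 51.4% within 5 kb), and at least 20 fragments with spans of 250 to 1000 bases gave 521 loci, 42 lower and 12 higher (median -0.10, 54.9% within 5 kb). The cause of these differences was not tested. Few fragments per locus limit the precision of single loci.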
